A study of Mus musculus with 12 samples.

Results

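The genes described here are 10 transcripts of adult skeletal muscle read in mammary tumors, namely Acta1, Myh1, Myh2, Myh4, Myl1, Mylpf, Tnnt3, Tnni2, Pvalb and Ckm, out of 54532 genes listed for these libraries. They were chosen by their measured values, because their reads lay mainly in 2 of the 12 tumors, so their levels and the comparisons of groups below describe them and carry no test. The study asked how 2 agonists of the retinoid X receptor, MSU-42011 and bexarotene, change the RNA of mammary tumors. All 12 tumors came from MMTV-Neu mice, in which the mouse mammary tumor virus promoter drives the Neu oncogene in the mammary epithelium, and mice were randomized once a tumor had reached 4 mm. The 4 control mice ate powdered chow with the drug vehicle of ethanol and coconut oil, the 4 MSU-42011 mice the same chow with MSU-42011 at 100 mg per kg of diet, and the 4 bexarotene mice the same chow with bexarotene at 100 mg per kg, each for 10 days. Ages of the mice are not given in the sources used here. RNA came from frozen pieces of whole tumor and was selected for poly(A), so each library held every cell type in its piece. Libraries held 16583413 to 25925027 reads assigned to genes. In such pieces fewer muscle fibers and less RNA per fiber cannot be told apart.

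Skeletal muscle fibers contract when myosin heavy chains pull on thin filaments of actin, and troponin on those filaments answers to calcium. Each adult fiber carries mainly 1 heavy chain, encoded by Myh4 in the fastest, glycolytic type IIB fibers, by Myh1 in type IIX, by Myh2 in the more oxidative type IIA and by Myh7 in slow fibers. Fast and slow fibers also use different light chains, troponin subunits and calcium pumps, so the mixture of these transcripts reads out fiber type. In the mouse, type IIB and IIX fibers prevail in most limb and trunk muscles, and the subcutaneous mammary glands lie over the body wall and the thin muscle sheet of the skin.

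The 3 fast heavy chain genes are close copies, and reads can tell them apart only where their sequences differ. The aligned coding sequences of Myh4 and Myh1 were identical at 90.1% of positions, those of Myh4 and Myh2 at 88.2%, those of Myh1 and Myh2 at 90.9%, and those of Myh4 and the slow Myh7 at 77.3%. Of all 50-base words in their GENCODE transcripts, 18.9% for Myh4, 30.5% for Myh1 and 24.6% for Myh2 also occurred in another gene. The other gene could be 1 of these 3 or a further one such as Myh8. Assignment of reads from such stretches is uncertain, and the effect on the counts was not tested. The 60 coding bases within 1 exon that differ most are shown, because they show what separates the 3 genes on which the fiber type rests. Capitals mark the 24 positions at which the 3 genes are not all alike. They lie in GRCm38 on the plus strand, for Myh4 in exon 28 at chr11:67254458-67254517, for Myh1 in exon 29 at chr11:67217464-67217523, and for Myh2 in exon 29 at chr11:67191348-67191407.
Myh4: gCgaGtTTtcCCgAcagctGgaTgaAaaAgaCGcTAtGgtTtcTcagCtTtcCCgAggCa
Myh1: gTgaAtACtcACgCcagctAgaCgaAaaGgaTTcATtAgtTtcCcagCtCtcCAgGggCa
Myh2: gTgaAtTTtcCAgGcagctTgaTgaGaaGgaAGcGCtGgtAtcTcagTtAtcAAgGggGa

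Sequences before the transcription start, from RefSeq on GRCm38.p6, are shown for these heavy chains and for Acta1, because the members were high together in the same tumors. RefSeq windows were found for 8 of the 10 members. The stretches end before every annotated exon of the gene, for Myh4 at chr11:67237562-67237811 (plus strand), for Myh1 at chr11:67199852-67200051 (plus strand, 200 bases), for Myh2 at chr11:67170777-67171026 (plus strand) and for Acta1 at chr8:123894776-123895025 (minus strand). Capitals mark matches, on either strand, to 4 motifs known from muscle or general promoters: the E-box CAGCTG, the TATA box TATAAA, the CArG box and the MEF2 box.
Myh4: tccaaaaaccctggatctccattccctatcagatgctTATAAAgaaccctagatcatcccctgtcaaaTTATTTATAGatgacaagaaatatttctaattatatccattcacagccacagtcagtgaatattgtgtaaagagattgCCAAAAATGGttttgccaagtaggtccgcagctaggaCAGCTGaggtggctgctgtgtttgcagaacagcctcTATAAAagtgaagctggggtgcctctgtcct
Myh1: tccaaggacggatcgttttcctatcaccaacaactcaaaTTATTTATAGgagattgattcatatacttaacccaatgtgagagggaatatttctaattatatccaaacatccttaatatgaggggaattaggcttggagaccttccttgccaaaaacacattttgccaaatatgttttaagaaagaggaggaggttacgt
Myh2: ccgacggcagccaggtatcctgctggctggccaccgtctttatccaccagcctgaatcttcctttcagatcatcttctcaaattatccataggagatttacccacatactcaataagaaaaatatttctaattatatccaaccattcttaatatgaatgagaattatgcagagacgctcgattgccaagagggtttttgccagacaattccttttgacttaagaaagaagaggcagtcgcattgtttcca
Acta1: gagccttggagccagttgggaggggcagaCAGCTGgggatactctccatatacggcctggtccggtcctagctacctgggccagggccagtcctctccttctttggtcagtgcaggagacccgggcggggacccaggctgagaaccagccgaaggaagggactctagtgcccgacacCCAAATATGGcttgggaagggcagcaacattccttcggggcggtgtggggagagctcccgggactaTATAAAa

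In the 250 bases before the start, CAGCTG occurred in 5 of the 9 windows of these genes and in 13.0% of all 32851 RefSeq windows, and TATAAA in 4 of 9 and in 12.4%. The CArG box occurred in 2 of 9 windows, those of Acta1 and Myh4, and in 1.47% of all. The MEF2 box occurred in 3 of 9, those of Myh1, Myh4 and 1 of the Pvalb windows, and in 2.92% of all. In Myh4 and Myh1 a TATAAA on the opposite strand lies inside the MEF2 match, so these matches are not separate. A match is a description of the letters and not of a bound factor.

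Control replicate 1 (control 1) and bexarotene replicate 1 (bexarotene 1) carried nearly all reads of the 10 genes. Summed over the 10, bexarotene 1 had 8267 reads, 304.7 normalized CPM (counts scaled to library size), and control 1 had 2852, or 169 CPM. The other 10 tumors had between 31 and 101 reads, 1.63 to 4.78 CPM. Next came control 2 with 101 reads, followed by MSU-42011 2 at 2.96 and MSU-42011 3 at 2.87 CPM. Even in the richest tumors the share was small: the 10 genes took 0.0319% of the reads of bexarotene 1 (exact 95% interval 0.0312% to 0.0326%) and 0.0166% of those of control 1 (0.0160% to 0.0172%). These intervals cover counting error only. No tumor treated with MSU-42011 was among the 2. The source of these transcripts in the 2 tumors was not tested.

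**Figure D1:**
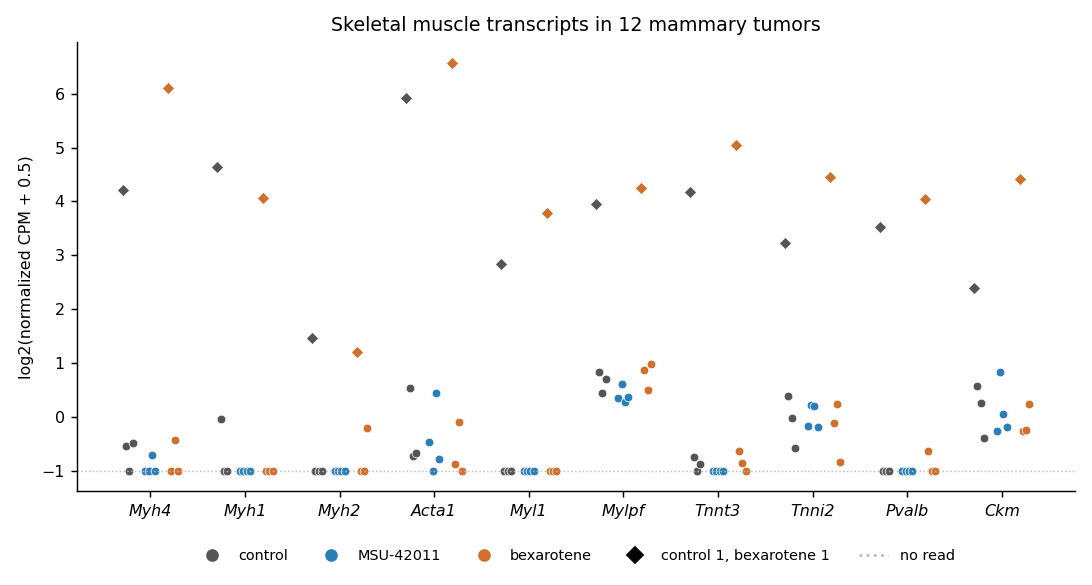
Each point is 1 tumor, and the y axis gives log2 of normalized CPM plus 0.5 for each of the 10 transcripts. Diamonds are control 1 and bexarotene 1, which lie above all other tumors for every gene. Mylpf, Tnni2 and Ckm alone have reads in all 12 tumors.

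The heavy chains gave the clearest contrast. Myh4 (chr11:67238029-67260446) had 305, 4, 0 and 5 reads in control tumors 1 to 4, 0, 0, 2 and 0 in MSU-42011 tumors 1 to 4, and 1869, 0, 5 and 0 in bexarotene tumors 1 to 4. Myh1 (chr11:67200052-67224575) had 414, 10, 0 and 0 reads in control tumors and 442, 0, 0 and 0 in bexarotene tumors, and none in MSU-42011 tumors. Both genes were high in the same 2 tumors and absent or nearly so in the rest, but their order was opposite: Myh4 was 3.81 times higher in bexarotene 1 than in control 1 in normalized counts (counting interval 3.37 to 4.32), and Myh1 was 0.664 times as high (0.579 to 0.761). Myh2 (chr11:67171027-67197517) was scarce, with 38, 0, 0 and 0 reads in control, none under MSU-42011 and 49, 0, 0 and 6 under bexarotene. The 6 reads of bexarotene 4 came without Myh1 or Myh4 reads in that tumor. Part of the exons of Myh1 (8.11%) is overlapped by the antisense gene Myhas and 3.32% of those of Myh2 by 9430073C21Rik, and whether counting used strand is not given in the sources used here.

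The thin filament and the light chains followed. Acta1 (chr8:123891769-123894751, minus strand), skeletal alpha-actin, was the most abundant member per unit length, at 96.5 FPKM in bexarotene 1 and 57.4 FPKM in control 1. Its reads were 1017, 20, 2 and 3 in control, 4, 0, 16 and 2 under MSU-42011, and 2579, 1, 9 and 0 under bexarotene. Myl1 (chr1:66924295-66945404, minus strand), the essential light chain of fast myosin, had 112 reads in control 1, 362 in bexarotene 1 and none in any other tumor. It was the cleanest of the 10, although 11.7% of its 50-base words also lie in the processed pseudogene Mylf-ps on chromosome 12. Mylpf (chr7:127208890-127214298), the regulatory light chain of fast myosin, had 253, 27, 16 and 26 reads in control, 14, 17, 13 and 19 under MSU-42011, and 503, 28, 19 and 24 under bexarotene. Thus Mylpf was read in every tumor, and the lower of the pair stood 10.2 times above the highest of the other 10.

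Troponin T and troponin I of fast fibers behaved differently from each other outside the pair. Tnnt3 (chr7:142498836-142516009) had 298, 2, 0 and 1 reads in control, none under MSU-42011, and 881, 3, 1 and 0 under bexarotene. Tnni2 (chr7:142441808-142444410), its neighbor on chromosome 7, had 150, 17, 9 and 4 reads in control, 7, 11, 12 and 9 under MSU-42011, and 580, 9, 14 and 1 under bexarotene. No tumor lacked Tnni2 reads, whereas all 10 others had 3 or fewer reads of Tnnt3.

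Pvalb and Ckm stand for calcium buffering and energy supply. Pvalb (chr15:78191114-78206400, minus strand), parvalbumin, binds calcium in the fastest fibers and had 185, 0, 0 and 0 reads in control, none under MSU-42011, and 432, 3, 0 and 0 under bexarotene. Ckm (chr7:19404776-19422841), the muscle creatine kinase that rebuilds ATP, had 80, 21, 13 and 6 reads in control, 6, 21, 10 and 9 under MSU-42011, and 570, 7, 7 and 11 under bexarotene. It was the least distinct member, as control 1 exceeded the highest of the other 10 tumors by only 3.73 times. Of its exonic bases, 15.5% are overlapped by A930016O22Rik on the other strand. In the strict sense Myl1 alone had reads in the 2 tumors only. Mylpf, Tnni2 and Ckm had reads in all 12, and the 2 tumors held 78.8%, 88.7% and 85.4% of their reads, against 93.5% to 100% for the other 7.

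Fiber type was read from the heavy chains and from pairs of fast and slow isoforms. Of the reads of Myh4, Myh1, Myh2 and Myh7 together, bexarotene 1 gave 78.4% to Myh4 (exact 95% interval 76.7% to 80.0%), 18.5% to Myh1 (17% to 20.2%), 2.05% to Myh2 and 1.05% to Myh7, out of 2385 reads. Control 1 gave 40.3% to Myh4 (36.8% to 43.9%), 54.7% to Myh1 (51.1% to 58.3%) and 5.02% to Myh2 (3.58% to 6.83%) out of 757. The slow Myh7 had 25 reads in bexarotene 1 and 0 of 757 in control 1, which allows a share of up to 0.486% by the exact interval. The fast heavy chains made up nearly all reads in both tumors, but that of IIB led in bexarotene 1 and that of IIX in control 1.

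**Figure D2:**
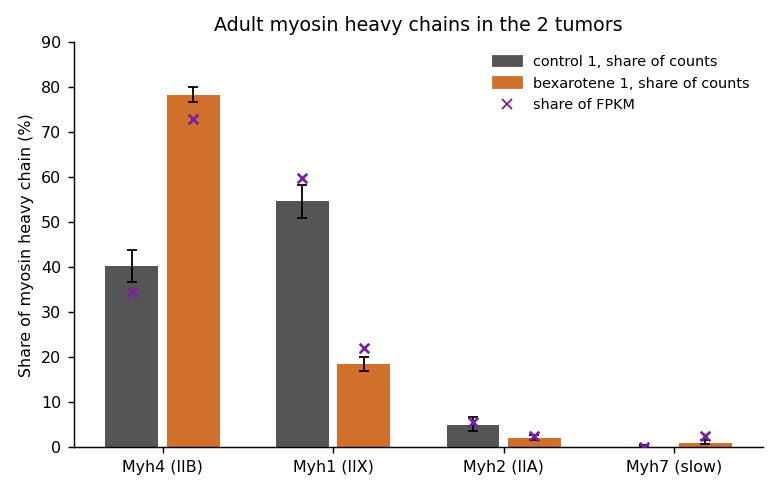
Bars give each heavy chain's share of the summed reads of Myh4, Myh1, Myh2 and Myh7 in percent, with exact 95% binomial intervals as error bars, for control 1 and bexarotene 1. Crosses give the share of the summed FPKM. Myh4 leads in bexarotene 1 at 78.4% and Myh1 in control 1 at 54.7% of reads.

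The order did not turn with the unit. By FPKM, Myh4 made up 72.9% and Myh1 22.0% in bexarotene 1, and 34.5% and 59.9% in control 1. The FPKM values divide by the mean length of a gene's annotated transcripts, which is 5964 bases for Myh4 but 4665 for Myh1 and 4529 for Myh2, although the longest transcripts are alike in length (6016, 6081 and 6083 bases). Per base of the longest transcript, Myh4 and Myh1 stood at 78.6% and 18.4% in bexarotene 1 and at 40.6% and 54.5% in control 1.

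Pairs of fast and slow isoforms did not all behave alike. In the troponin T, troponin I and both light chain pairs the fast form prevailed in both tumors, and the slow form had more reads in bexarotene 1. By FPKM, fast Tnnt3 made up 98.8% of Tnnt3 plus slow Tnnt1 in control 1 and 90.8% in bexarotene 1, where Tnnt1 had 74 reads against 3 in control 1 and at most 9 elsewhere. Tnni2 made up 98.7% of its sum with slow Tnni1 in control 1 and 95.9% in bexarotene 1. Mylpf made up 99.3% of its sum with slow Myl2 in control 1 and 91.0% in bexarotene 1, where Myl2 had 57 reads against 2 in control 1 and at most 2 elsewhere. Myl1 made up all of its sum with slow Myl3 in control 1 and 97.2% in bexarotene 1, where Myl3 had 12 reads. Myoz1 and slow Myoz2, which anchor calcineurin at the Z disc and had at most 4 and 1 reads in the other tumors, went the other way, with a fast share of 59.1% in control 1 (10 and 12 reads) and 95.2% in bexarotene 1 (125 and 11 reads). Casq1, the fast calsequestrin, made up 63.8% of its sum with Casq2 in control 1 and 60.9% in bexarotene 1, although Casq2 had up to 78 reads in the other tumors.

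Several pairs could not be read in this way. Tnnc2, fast troponin C, was listed at 0 in both control 1 and bexarotene 1 and had reads only in control 2 (10) and MSU-42011 2 (2), while 74.0% of its exonic bases are overlapped by Ube2c, a gene of dividing cells with 459 to 2417 reads per tumor, on the other strand. The effect of that overlap on the count was not tested. The calcium pump Atp2a1 had 1053 reads in bexarotene 1 and 124 in control 1, but between 6 and 199 in the other tumors. Its slow partner Atp2a2 is expressed in many cell types and had 4009 reads in control 1, 6236 in bexarotene 1 and up to 5769 elsewhere, so the fast share of 4.40% and 20.1% by FPKM does not read muscle alone. Slow fiber genes other than the myosins did not all favor bexarotene 1: Csrp3 had 26 reads in control 1 against 14 in bexarotene 1 and none elsewhere.

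The 2 tumors differed gene by gene. In normalized counts, 8 of the 10 members were higher in bexarotene 1 than in control 1 with counting intervals above 1, from 1.24 times for Mylpf (1.06 to 1.44) to 4.43 times for Ckm (3.50 to 5.67). Myh1 was lower, and for Myh2 the interval held 1 (0.514 to 1.26). The median ratio was 1.71. With 1 tumor on each side, these intervals compare the 2 libraries and not the diets.

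**Figure D3:**
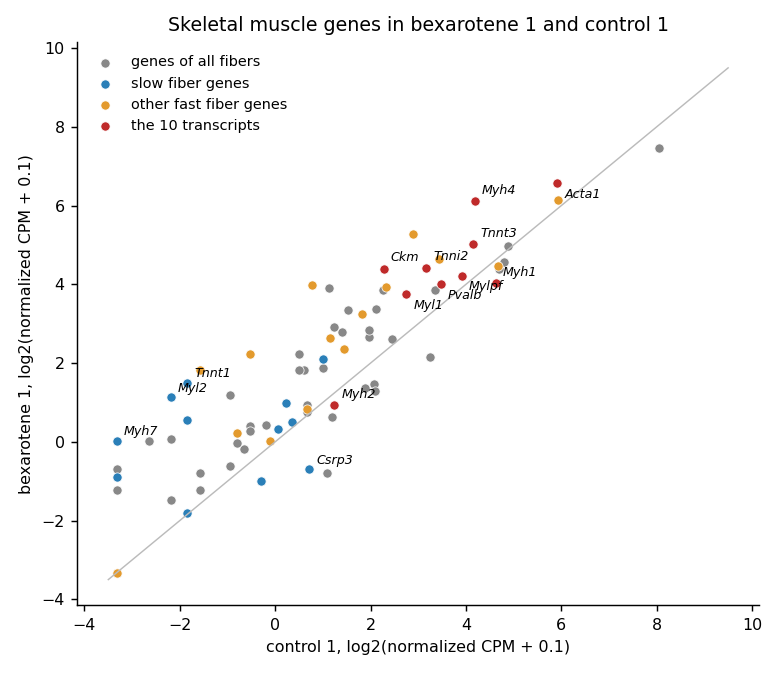
Each point is a skeletal muscle gene, with log2 of normalized CPM plus 0.1 in control 1 on the x axis and in bexarotene 1 on the y axis, and the line marks equal levels. Most members lie above the line and Myh1 lies below it; slow fiber genes such as Myl2, Tnnt1 and Myh7 lie far above it and Csrp3 below it.

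Beyond the 10, 69 further muscle genes were listed as fast, slow or common to all fibers. Of the 64 with at least 10 reads in some tumor, 33 had control 1 and bexarotene 1 as their 2 highest tumors, against 3.54% of all 18311 genes with that many reads. A stricter measure asked that both tumors stand at least 4 times above each of the other 10 tumors. Values of those 10 under 0.184 CPM, which is 3 reads in bexarotene 4, were first raised to 0.184 CPM. By this measure 12 of the 64 qualified, against 25 of all 18311 genes (0.137%), and 9 of these 25 were members. Among all 66 pairs of tumors, bexarotene 1 with bexarotene 2 had more such genes, at 41, and the next pair after these had 2. Some of the 64 muscle genes, such as Csrp3, Smpx and Myot, reached 10 reads only in control 1 or bexarotene 1. The filter thus partly fixes the counts of 33 and 12 of 64, and nothing is read from them. The 25 held 4 genes of no fiber list: the pseudogene Mylf-ps, Eef1a2, the elongation factor form of muscle and neurons, Cox6a2, the muscle form of a cytochrome oxidase subunit, and Myo18b.

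Of the 12, Ttn, the giant spring of the sarcomere, had 171 and 390 reads in control 1 and bexarotene 1 and at most 14 elsewhere. Trdn, triadin of the calcium release unit, had 61 and 67 reads and none elsewhere. Ryr1, the calcium release channel itself, had 64 and 192 reads and at most 7 elsewhere, and Actn3, the alpha-actinin of fast fibers, had 83 and 411 and at most 6. Xirp2, at 159 and 118 reads, and, outside the 12, the calcium channel subunit Cacng1, at 34 and 13, were higher in control 1 in normalized counts, at 0.462 (0.361 to 0.589) and 0.238 (0.115 to 0.462) times the control 1 level in bexarotene 1. As whole lists, summed levels were less distinct. The fast genes other than the members summed to 122 CPM in control 1 and to 219 in bexarotene 1. The other 10 tumors had 91.8 to 180, a range that held control 1. Pfkm alone gave 60.7 CPM of the sum in control 1, and 58.0 to 88.5 CPM in the other 10 tumors. The sum therefore says little about the scarcer fast genes. Over the genes of all fibers with at least 20 reads in the pair, 16 of 36 were higher in bexarotene 1, 8 were higher in control 1 and 12 had intervals holding 1.

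Other genes of the lists stood out less. Desmin (Des), the intermediate filament of muscle, was highest in the pair at 436 and 562 reads but had 34 to 122 elsewhere. Fbxo32, a ubiquitin ligase of muscle wasting, had 4452 and 4814 reads within the range of 2183 to 7157 in the other 10, and myoglobin (Mb) had 172 and 195 within 43 to 214. Among muscle forms of metabolic enzymes, Pygm, the muscle glycogen phosphorylase, had 429 reads in bexarotene 1 but only 27 in control 1, against 14 to 30 elsewhere. In normalized counts control 1 was second by a small margin, at 1.60 CPM against at most 1.51 in the other tumors. Ckmt2, the mitochondrial creatine kinase of muscle, had 63 reads in bexarotene 1 and 1 in control 1.

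Of 16 genes of developing muscle and satellite cells, 3 had at least 10 reads in some tumor, and the list summed to 2.13 CPM in control 1, 10.1 in bexarotene 1 and 0.108 to 1.14 elsewhere. Most of that sum in bexarotene 1 was Dlk1, also a gene of fat precursors and stroma, with 223 reads there, 3 in control 1 and up to 16 elsewhere. The muscle-forming factors were at or near 0. Myod1 had no read in any tumor, Myog had 2 and 1 reads in control 1 and bexarotene 1 and none elsewhere, and the embryonic heavy chain Myh3 had 0 and 1 there and 6 in bexarotene 2. The perinatal heavy chain Myh8 had 5 reads and the fetal receptor subunit Chrng 3 reads, both in control 1 alone. Myf6, the factor of mature fibers, had 3 and 12 reads and none elsewhere. The heart list did not stand apart in the pair, at 30.4 CPM in control 1 and 21.1 in bexarotene 1 against 18.6 to 37.3 elsewhere. Of its genes, Tnni3, Tnnt2 and Myl4 were read in all 12 tumors, while Myl7 and Nppa had no read in either tumor of the pair and Actc1 had 6 in bexarotene 1 alone.

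The genes whose pattern was most like the members over the 12 tumors, by Pearson correlation of log2 CPM plus 0.5 with the members' mean, were Mylf-ps (r = 0.999), 2310002L09Rik (0.998), Mybpc1 (0.995), Art1 (0.995), Cox6a2 (0.994), Lmod2 (0.993), Klf14 (0.991), Eef1a2 (0.991), Myom2 (0.989) and Actn3 (0.983), out of 18301 genes compared. Of these 10, 4 were on the fiber lists, Art1 and Cox6a2 were on the list of muscle oxidative metabolism, and 2310002L09Rik and Klf14 had at most 12 reads in any tumor. The likeness rests on the 2 tumors: without them r ranged from -0.0401 to 0.844 for the 8 genes that still varied. By rank correlation none of the same 10 genes came first. Mylf-ps shares 65.1% of its 50-base words with Myl1, so the assignment of its reads is uncertain.

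Other tissues were read beside the muscle. In bexarotene 1 stromal genes also stood apart, with 84000 reads of Col3a1 against 299 to 4344 in all other tumors, 9341 of Dcn against 0 to 638, and 3032 of the endothelial Pecam1 against 360 to 1147. Control 1 did not share this, at 1438 reads of Col3a1 and 772 of Pecam1. Summed normalized counts of the 12 fibroblast and tendon genes were 11623 CPM in bexarotene 1, 597.9 in control 1 and 121 to 1759 in the others. Endothelial genes stood at 551 in bexarotene 1, 197 in control 1 and 106 to 262 in the others. No gene of the heart, adipocyte, nerve, skin, blood or tumor epithelium lists had control 1 and bexarotene 1 as its 2 highest tumors, against 1 of 10 endothelial (Egfl7), 1 of 12 fibroblast and tendon (Pdgfra) and 1 of 13 smooth muscle genes (Des). Adipocyte genes summed to 283 CPM in control 1 and 269 in bexarotene 1, within the 234 to 324 of the others, although Plin1 and Adipoq had 63 and 34 reads in bexarotene 1, at most 12 each elsewhere and none in control 1. Tumor epithelium genes summed to 3406 CPM in bexarotene 1, the lowest of the 12, and to 6741 in control 1, the second highest. The part of stroma or epithelium in the values of bexarotene 1 was not tested.

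**Figure D4:**
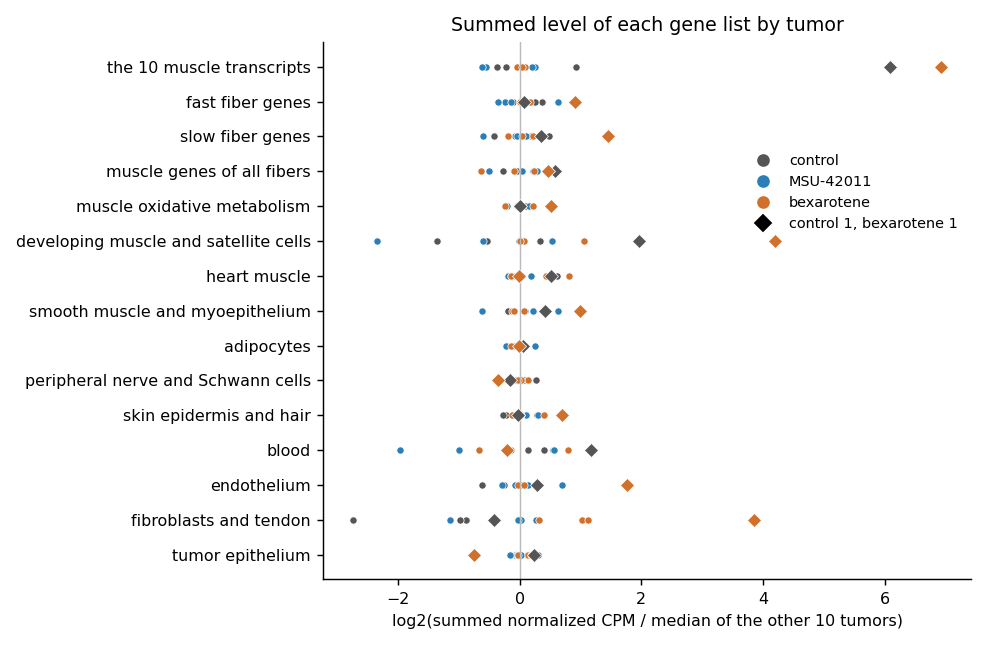
Each point is 1 tumor, and the x axis gives log2 of the summed normalized counts of a gene list over the median of the 10 tumors other than control 1 and bexarotene 1. Both diamonds lie far to the right for the 10 transcripts. That of bexarotene 1 also does for developing muscle and satellite cells, where control 1 is second, and for fibroblast and tendon genes. For endothelium bexarotene 1 lies less far to the right.

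The last question was how 2 such tumors, 1 in the control group and 1 in the bexarotene group, enter the comparisons of diets. In normalized CPM, Acta1 was 15.4 ± 29.9 (SD, n = 4) in control, 0.292 ± 0.393 under MSU-42011 and 23.9 ± 47.4 under bexarotene, and Myh4 was 4.62 ± 8.97, 0.0270 ± 0.0541 and 17.3 ± 34.4. Control 1 and bexarotene 1 are called muscle-rich here only for their reads of the 10 members. The SD exceeded the mean in both groups that hold a muscle-rich tumor for all 10 members. Without those tumors the control mean of Acta1 was 0.394 and the bexarotene mean 0.161. For the 5 members with no read under MSU-42011, the group could be given only a floor of 3 reads over its 4 libraries, and against it Myh1 was at least 161-fold lower than in control, Tnnt3 at least 114-fold, Pvalb at least 70.5-fold, Myl1 at least 42.7-fold and Myh2 at least 14.5-fold. Myh4 had 2 reads under MSU-42011, and control exceeded it 151 times with a counting interval of 41.5 to 1255. This interval pools the reads of each group and leaves out the spread between tumors. Of the reads behind these control values, 414 of 424 for Myh1, 298 of 301 for Tnnt3 and 305 of 314 for Myh4 were in control 1. For Pvalb, Myl1 and Myh2 all of them were. These folds therefore describe mainly 1 tumor and not the control diet.

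edgeR's quasi-likelihood test called no gene at an adjusted p under 0.05 in any of the 3 comparisons of diets, so the background of adjusted calls was 0% and no member was called. Only 4 members passed its filter on low counts (Acta1, Ckm, Mylpf and Tnni2). Across the 15504 genes tested, 309 had an unadjusted p under 0.05 between MSU-42011 and control (1.99%), 998 between bexarotene and control (6.44%) and 612 between both agonists (3.95%), and of the 4 members 0, 0 and 4 did, a count from which nothing is read because the same values chose them. Limma called no gene, and DESeq2 called 1, 6 and 25, none of them a member.

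The fitted differences of the 4 carried standard errors of 1.06 to 2.68 on the log2 scale, the largest for Acta1. For MSU-42011 against control, the log2 fold change was -5.70 for Acta1, -2.45 for Mylpf, -2.30 for Tnni2 and -1.40 for Ckm, with a median of -2.38 against 0.00155 over all genes. For bexarotene against control it was 0.65, 0.30, 1.15 and 1.76, with a median of 0.90 against 0.0296. For MSU-42011 against bexarotene it was -6.34, -2.76, -3.45 and -3.17, with a median of -3.31 against -0.0243. The 3 comparisons share groups and are not independent. The quasi-likelihood dispersion of these genes lay between percentiles 97.6 and 99.95 of all genes, highest for Acta1.

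With the filter lifted, a choice made after seeing the data for the fits that leave out tumors, all 10 members could be fitted among 29907 genes. For MSU-42011 against control, 9 of 10 were over 4-fold lower, as were 4.53% of all genes, and for MSU-42011 against bexarotene 10 of 10, as were 9.00% of all genes. The choice of the 10 by the same values fixes these counts, so nothing is read from them. The median log2 fold change was -6.81 and -7.76, and -5.55 and -6.37 when the 5 genes without reads under MSU-42011 were set at their bound, since their fitted values depend on a prior count. For bexarotene against control, 9 of 10 were above 0, from 0.00397 for Myh2 to 1.90 for Myh4, and Myh1 was at -0.61.

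Leaving out 1 tumor turned these values. Without control 1, bexarotene against control rose to between 2.34 (Mylpf) and 9.36 (Pvalb) for all 10, and without bexarotene 1 it lay between -1.86 (Mylpf) and -9.91 (Myh1) for all 10. Thus the sign for bexarotene against control depended on which of the 2 tumors was kept. Without control 1, the median for MSU-42011 against control went from -6.81 to -0.22, and without bexarotene 1 that for MSU-42011 against bexarotene went from -7.76 to -0.29. Members without reads in either group entered these medians at 0, namely Myh2, Myl1 and Pvalb in the first and Myh1 and Myl1 in the second. Without both tumors, 9 members had reads and the medians were -0.40, -0.29 and -0.57. The first again held Myh2 and Pvalb at 0 and the last Myh1. Single members spread widely, for MSU-42011 against control from -4.70 (Myh1) to 0.0885 (Tnni2). Myl1 then had no read in any tumor.

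**Figure D5:**
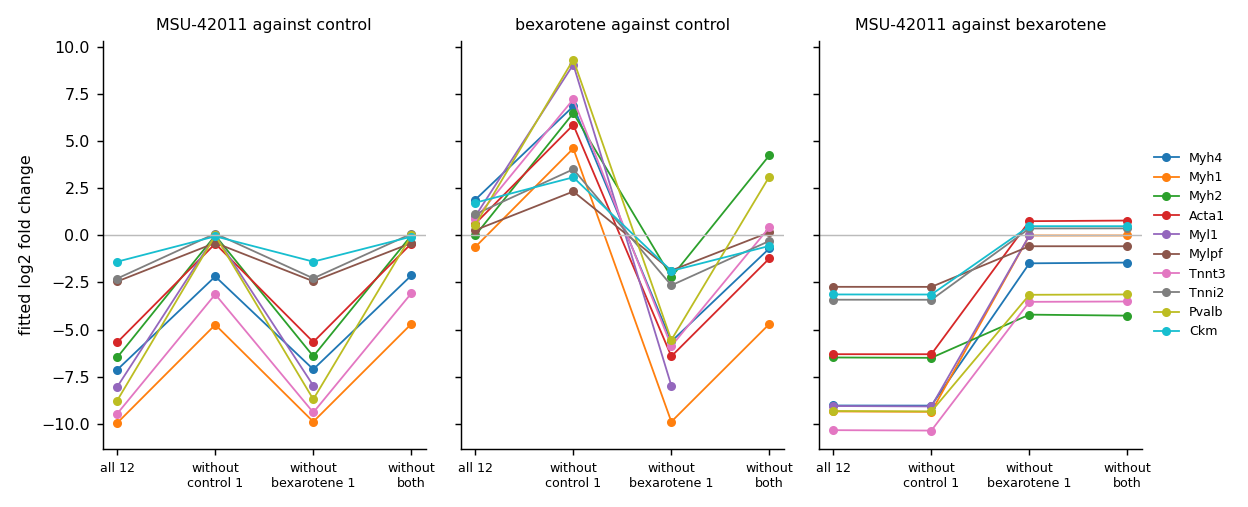
Each line is 1 of the 10 transcripts, and the y axis gives the edgeR log2 fold change without a filter on low counts, with all 12 tumors, without control 1, without bexarotene 1 and without both, for the 3 comparisons. The values for bexarotene against control lie above 0 without control 1 and below 0 without bexarotene 1 for all 10. A fitted gene without reads in either group of a comparison lies at 0.

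DESeq2 treated the 10 in another way. Its default filter on Cook's distance, a measure of how far 1 sample moves a fit, withheld a p-value from 9 of the 10 members and from 331 of 29907 genes in all, 25 of them on the lists of the 79 muscle genes. The largest distance of those 9 was always in bexarotene 1, from 17.1 for Mylpf to 32.0 for Acta1 against a limit of 6.99, and 8 of the 9 had both tumors past the limit. Myh2, at 3.07, kept its p-value. With the filter off, DESeq2 called 7 genes for MSU-42011 against control (0.0234% of 29907), 4 of them members (Myh1, Myl1, Pvalb and Tnnt3) and a further 1 the muscle gene Trdn. It called the same 5 among 42 genes for MSU-42011 against bexarotene (0.140%), and none of the 10 among 7 genes for bexarotene against control (0.0234%). Those 4 members had no read in any MSU-42011 tumor, so their fitted log2 fold changes, -21.9 to -24.1, are not finite estimates. The members were chosen by the same values, which favors such calls, so nothing is read from their number. Without the 2 tumors, DESeq2 called 3, 2 and 1 genes in the 3 comparisons, with no muscle gene among them.

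Among the other muscle genes some differences followed the 2 tumors and others did not. Of the 69, 29 passed the edgeR filter and none was called in any comparison. Unadjusted p-values under 0.05 were found for 1 of the 29 between MSU-42011 and control, 2 between bexarotene and control and 5 between both agonists, beside the shares of 1.99%, 6.44% and 3.95% of all genes. Ttn had a log2 fold change of 0.56 ± 1.39 (SE) for bexarotene against control, 3.79 without control 1 and -2.45 without bexarotene 1, and Des had -0.14 ± 0.84, 1.35 and -1.27. Pygm, which was high in bexarotene 1 only, had 2.02 ± 0.86, 2.21 without control 1 and -0.28 without bexarotene 1. Trim55, a ubiquitin ligase of the sarcomere with the lowest unadjusted p of these genes for bexarotene against control, kept its value, at -1.28 ± 0.40 with all tumors, -1.41 without control 1, -1.34 without bexarotene 1 and -1.47 without both. Fbxo32 likewise stayed between -0.36 and -0.28. Over the 26 genes fitted under all 4 settings, 11 changed sign for bexarotene against control without bexarotene 1, 2 did without control 1, and the median of absolute log2 fold changes went from 0.47 to 0.27 and 0.80.

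Across all genes the normalization hardly moved with these reads, with TMM scaling factors of 0.941 to 1.05 whether or not the muscle genes were included. Leaving out both tumors lowered the common biological coefficient of variation from 0.338 to 0.275. Genes with an unadjusted p under 0.05 by edgeR went from 998 to 419 for bexarotene against control, from 612 to 446 for MSU-42011 against bexarotene, and from 309 to 366 for MSU-42011 against control. Leaving out other single tumors moved these counts as much or more: without bexarotene 3 they were 1600 between bexarotene and control and 1242 between both agonists, and without MSU-42011 2 the count for MSU-42011 against control was 680. Without bexarotene 1 alone the first was 523 and without control 1 alone 869. When both tumors are left out, the muscle reads and the stromal reads of bexarotene 1 leave together and cannot be told apart.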

How the data were processed

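RNA selected for poly(A) was sequenced from 12 tumors of MMTV-Neu mice, and samples were grouped by their labels as control, MSU-42011 or bexarotene, with 4 tumors each. Per the labels and the submitters' processing notes, the authors aligned reads with STAR 2.6.1d and deposited raw read counts per gene from featureCounts 1.5.0-p3. The authors also deposited FPKM values, which scale counts by gene length and library size, with lengths equal within 1 base to the mean annotated transcript length for 96.7% of 29865 genes. The strand setting and genome build are not given in the sources used here, and 98.1% of the deposited gene coordinates equal those of GENCODE M21 on GRCm38.

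The members and gene lists were chosen with earlier results of these data known. Counts were normalized by TMM to CPM. The 3 comparisons were fitted together in edgeR 4.0.16 (R 4.3.3) by the quasi-likelihood test with default filtering and Benjamini-Hochberg adjustment at 0.05. Alternatives used DESeq2 1.42.0, limma 3.58.1 and other filters, scalings and sets of tumors, and fits without a filter or with tumors left out, DESeq2 without the 2 muscle-rich tumors and shares per longest transcript were added after seeing the data. The fit was tested on simulated data. Intervals of shares and ratios are exact 95% and cover counting error only. Library totals set the precision, with 3 reads equal to 0.178 CPM in control 1 and 0.111 CPM in bexarotene 1. Named genes were the 10 members, up to 6 genes of each list by mean level, members of isoform pairs, the 10 genes most correlated with the members, and defining markers of other tissues at or near 0. Other genes named were chosen after their values were seen. Whether tumors with the same replicate number were paired is not stated. Correlations of same-numbered tumors ranged from -0.352 to 0.349, the highest for control 1 with bexarotene 1. Tumors with different numbers were not correlated, so this range does not inform on pairing. The labels name separate tumors, 1 library each. Motifs were searched on both strands, and coding sequences were aligned with mafft 7.526.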

Additional observations from a re-analysis of the deposited data

Results flagged for a closer look

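Tumors that stood far from the other 3 of their group, by the gap to the nearest tumor over the range of the group, were found in 20 of 25 sets of a member in a group. Chance flags about 1 in 20 groups of normally distributed values, a rate that does not hold for counts mostly at 0. A group in which only 1 tumor had reads is always flagged, as for Myl1 in control and bexarotene. Of the 20, 19 were control 1 or bexarotene 1, and since the members were selected on their values in these tumors the number is a description. Values are in normalized CPM. Among the heavy chains, Myh4 stood at 18.1 in control 1 and 68.9 in bexarotene 1, Myh1 at 24.5 and 16.3, and Myh2 at 2.25 in control 1, while in bexarotene 1 Myh2 did not stand apart because bexarotene 4 had 6 reads. Acta1 stood at 60.3 in control 1 and 95 in bexarotene 1. The light chains were at 6.64 and 13.3 (Myl1) and at 15.0 and 18.5 (Mylpf). The troponins were at 17.7 and 32.5 (Tnnt3) and at 8.89 and 21.4 (Tnni2). Pvalb was at 11.0 and 15.9 and Ckm at 4.74 and 21.0. The remaining value was Myh4 in MSU-42011 3, at 0.108, which is 2 reads.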

How the results depend on the processing

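Between diets, edgeR called 0 genes under other scalings, filters and the replicate block, limma on FPKM or with voom called 0, and leaving out 1 tumor in turn gave 0 to 1 calls, or 0 to 2 without the filter on low counts. Without both muscle-rich tumors edgeR called 0, or 2, 0 and 1 without that filter. For MSU-42011 against control, bexarotene against control and MSU-42011 against bexarotene, DESeq2 called 1, 6 and 25 genes, without its Cook's distance filter 7, 7 and 42, and without the 2 muscle-rich tumors 3, 2 and 1. The median log2 fold change of the members tested was -2.38, 0.90 and -3.31. For MSU-42011 against control it was -6.81 without a filter, -6.65 by DESeq2 with or without the Cook's filter, -0.0546 without both tumors (-0.40 by DESeq2 and -0.40 without a filter), -0.87 by limma on FPKM, -1.08 by voom with quality weights, and -2.74 to -0.22 with 1 tumor left out, the last without control 1. For bexarotene against control it ran from -2.27 without bexarotene 1 to 3.32 without control 1, and with all tumors voom with quality weights turned its sign to -0.43, with all 4 members below 0. For MSU-42011 against bexarotene it was -7.76 without a filter, -7.81 by DESeq2 with or without the Cook's filter, -1.09 by limma on FPKM, -0.45 by voom with quality weights, and 0.37 without both tumors (-0.58 by DESeq2 and -0.57 without a filter), with -3.69 to 0.42 when 1 tumor was left out, the last without bexarotene 1. With the replicate block the medians were -0.67, 0.32 and -1.15. Control 1 and bexarotene 1 share a number, and the numbers were not shown to pair tumors. Settings differ in how many members pass their filter. In voom the quality weight was 0.314 for bexarotene 1, the lowest of all tumors, and 1.17 for control 1. The cause of the differences between settings was not tested. In edgeR without a filter, fitted members that lacked reads in both groups entered the medians at 0. Of the other values, 333 moved by less than the spread and 69 by more, mainly without control 1 or bexarotene 1. A filter of 10 counts in every tumor left Mylpf as the only member. Without the 2 tumors Mylpf, Ckm and Tnni2 still passed the filter, with standard errors of 0.34 to 0.72 on the log2 scale, and the other members had too few reads to pass it.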
